A study of Mus musculus with 15 samples.

Results

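The enzymes that write and erase DNA methylation and 3 of the proteins that read it were followed through single cells of the mouse prefrontal cortex (PFC). The set held 9 genes, taken by symbol from the 26145 genes listed: the DNA methyltransferases Dnmt1, Dnmt3a and Dnmt3b, the dioxygenases Tet1, Tet2 and Tet3, and the methyl-CpG-binding domain genes Mbd1, Mbd2 and Mbd3. All 9 were found. The rule took genes by symbol and used no measured value, but the genes were chosen with earlier results of these data known. The authors had reported Dnmt3a, Tet1 and Mbd3 as lower at P60 than at P21 in excitatory neuron subtypes. Counts of members called lower are thus not independent of these data. Single-cell RNA sequencing (10x Chromium, in which each RNA molecule carries a unique molecular identifier, UMI) had been applied to PFC of male C57BL/6N mice in 15 libraries, each from 2 pooled mice. In 12 of them the mice were adults of 8 to 10 weeks, called P60 here, that had gone through intravenous self-administration of either cocaine or saline. They were taken during maintenance, at 48 hours of withdrawal or at 15 days of withdrawal, with 2 libraries for each of the 6 groups. The saline mice went through the same training and surgery as the cocaine mice. The other 3 libraries came from mice of 3 weeks (P21) with no drug or saline, and the methods give 4 such mice for these 3 libraries, so P21 libraries may share animals. The P21 libraries also lack the catheter, the training and the self-administration of cocaine or saline that all P60 libraries had, so age, procedure and preparation cannot be told apart.

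DNA methylation in mammals is the addition of a methyl group to cytosine, mostly where a C is followed by a G (CpG). Dnmt3a and Dnmt3b place new methyl groups and Dnmt1 copies them to the new strand when DNA is replicated, while the Tet enzymes oxidise methylcytosine, the first step towards its removal. Neurons are known for methylation outside CpG that is laid down by Dnmt3a in the first weeks after birth, and for a high content of the oxidised base. The Mbd proteins share a methyl-CpG-binding domain, with the exception that mammalian Mbd3 binds methylated DNA weakly, and Mbd2 and Mbd3 are alternative subunits of the NuRD chromatin-remodelling and deacetylase complex.

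The retained cells numbered 35360, of which 24822 were P60 and 10538 were P21, and a library held 1055 to 4439 cells and 8375172 to 42892922 UMIs. The cells were compared as 8 classes named by the authors: excitatory neurons, inhibitory neurons, astrocytes, oligodendrocyte precursors (OPC), newly formed oligodendrocytes, mature oligodendrocytes, microglia and endothelial cells. The authors named the P21 cells by their likeness to P60 clusters. Each listed marker of a class was highest in its own class at both ages. The endothelial class also held pericyte and smooth muscle markers, which summed to 4263 to 7159 CPM at P60, against 8411 to 12909 CPM for endothelial markers. Endothelial cells below means this mixed class, and its levels cannot be assigned to endothelial cells alone. One tissue label reads NAc (nucleus accumbens) where the titles say PFC, and all 15 libraries were kept and treated as PFC. Excitatory neurons made up 58.2% of P60 cells and inhibitory neurons 4.80%. Levels are given in CPM, the UMIs of a gene scaled by the UMIs of all cells of that class in a library, and libraries, not cells, are the replicates. The 9 genes were sparse, with 17034 UMIs of Dnmt3a, 10740 of Tet3, 8992 of Mbd3, 8647 of Dnmt1, 5089 of Mbd1, 3217 of Mbd2, 3196 of Tet1, 2086 of Tet2 and 243 of Dnmt3b in all libraries together. These reads come from transcript ends, so levels were not compared between genes. Fewer cells of a kind within a class and less RNA per cell cannot be told apart in these sums. At most 27 cell barcodes were shared by a pair of libraries.

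On the mouse build NCBIM37 that the files use, Dnmt1 lies at chr9:20711650-20757317 on the minus strand, Dnmt3a at chr12:3806007-3914443 on the plus strand and Dnmt3b at chr2:153475186-153513466 on the plus strand. Tet1 lies at chr10:62267318-62361866, Tet2 at chr3:133126643-133207354, Tet3 at chr6:83312367-83391672 and Mbd3 at chr10:79855284-79862295, all on the minus strand. Dnmt3a overlaps 2 gene models and Dnmt3b 1 on the opposite strand. Tet1 overlaps a U6 model on its own strand, and the last base of Mbd1 is close to Ccdc11 on the same strand. Whether any UMIs of these models were counted for the members was not measured.

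Dnmt3a and Tet1 are the members with the largest age differences in neurons, and their promoters are shown for that reason, from 250 bases before to 50 bases after a transcript start (RefSeq, build GRCm38.p6, a later build than that of the files). RefSeq promoters matched 7 of the 9 members. Both are written 5′ to 3′ with each CpG, the dinucleotide that these enzymes act on (letters CG), in capitals, the first from chr12:3806730-3807029 on the plus strand and the second from chr10:62887275-62887574 on the minus strand:
Dnmt3a: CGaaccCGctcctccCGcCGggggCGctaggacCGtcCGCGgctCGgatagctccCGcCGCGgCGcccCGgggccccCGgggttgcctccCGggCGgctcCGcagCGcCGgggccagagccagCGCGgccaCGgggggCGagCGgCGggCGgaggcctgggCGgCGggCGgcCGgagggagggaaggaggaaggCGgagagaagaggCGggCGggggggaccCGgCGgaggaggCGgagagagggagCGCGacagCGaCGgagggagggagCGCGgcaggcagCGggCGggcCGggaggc
Tet1: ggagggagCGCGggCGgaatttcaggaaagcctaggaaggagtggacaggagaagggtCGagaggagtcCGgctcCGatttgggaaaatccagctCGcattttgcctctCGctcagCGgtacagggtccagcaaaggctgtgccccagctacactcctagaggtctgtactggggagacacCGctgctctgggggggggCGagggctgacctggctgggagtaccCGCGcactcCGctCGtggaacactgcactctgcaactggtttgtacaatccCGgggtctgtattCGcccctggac
The Dnmt3a window held 46 CpG and had a GC content of 82.3%, and 98.4% of 32851 promoters of the same length held fewer CpG. It is 1 of 3 Dnmt3a starts in RefSeq, of which the others held 47 and 18 CpG. The Tet1 window held 17 CpG at a GC content of 61.7%, more than 68.6% of promoters. It is the only Tet1 start among the promoters used, and whether it is the first start of the gene model counted here was not checked. The median promoter held 7 CpG and 94.6% held at least 1, counted on 1 strand, since CG reads the same on the other. Methylation itself was not measured in these cells.

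To order the classes, each class was set against the next lower in mean CPM within the same library by an exact sign-flip permutation test on log2(CPM + 1), two-sided, and p-values were adjusted over all 63 such pairs (Benjamini-Hochberg). P60 levels are means over 12 libraries, cocaine and saline together, or over 11 for astrocytes, OPC and newly formed oligodendrocytes (a class needed at least 10 cells in a library). Of the 63 pairs 1 differed, Mbd2 in endothelial cells over mature oligodendrocytes, and the other 62 did not pass, so most of the orders below are descriptions.

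The 3 writers had different orders over the classes at P60. Dnmt1, the maintenance enzyme, was at 39.6 ± 15.8 CPM in OPC (SD), 35.3 ± 6.49 in inhibitory neurons, 31.8 ± 5.82 in endothelial cells, 30.8 ± 21.7 in newly formed oligodendrocytes, 27.5 ± 1.96 in excitatory neurons, 19.9 ± 7.63 in mature oligodendrocytes, 18.5 ± 7.02 in microglia and 10.3 ± 5.03 in astrocytes. The excitatory libraries ran from 24.6 to 31.3 CPM with a median of 27.3, and the astrocyte libraries from 5.97 to 24.1 with a median of 8.52. All astrocyte values were thus below all excitatory values, although these classes are not neighbours in the order and were not tested. The nearest neighbours to a difference were excitatory neurons over mature oligodendrocytes, with a log2 difference of 0.54, higher in 10 of 12 libraries (exact permutation p = 0.00586, adjusted p = 0.123).

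Dnmt3a, a de novo enzyme, led in mature oligodendrocytes at P60. It was at 70.4 ± 26.4 CPM there, 48.4 ± 25.2 in newly formed oligodendrocytes, 48.3 ± 15.7 in astrocytes, 44.7 ± 12.2 in microglia, 40.3 ± 23.6 in OPC, 39.6 ± 2.66 in excitatory neurons, 35.5 ± 8.53 in endothelial cells and 34.7 ± 11.4 in inhibitory neurons. The mature oligodendrocyte libraries spread from 22.5 to 108 CPM, with a median of 62.0, and overlapped those of every other class, while the excitatory ones stayed between 36.6 and 43.8. Mature over newly formed oligodendrocytes gave a log2 difference of 0.77, higher in 9 of 11 libraries, that did not pass (exact permutation p = 0.0146, adjusted p = 0.123). Dnmt3b, the other de novo enzyme, was near the limit of detection except in endothelial cells. It was at 4.61 ± 1.44 CPM in endothelial cells, from 2.40 to 6.76 over the libraries with none at 0. In OPC it was at 3.30 ± 3.49 CPM from 8 UMIs, with 5 of 11 libraries at 0, and it was at 1.96 ± 1.94 in astrocytes, 1.08 ± 1.99 in microglia, 1.05 ± 2.40 in newly formed oligodendrocytes and 0.38 ± 0.88 in inhibitory neurons. Excitatory neurons held 61 UMIs of Dnmt3b in 14443 cells, or 0.268 ± 0.232 CPM, and mature oligodendrocytes 1 UMI.

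Among the erasers, Tet1 was high in the oligodendrocyte lineage and astrocytes and low in excitatory neurons and microglia. It was at 25.3 ± 10.1 CPM in OPC, 20.9 ± 10.1 in newly formed oligodendrocytes, 17.8 ± 6.62 in astrocytes, 16.0 ± 6.37 in mature oligodendrocytes, 9.87 ± 3.54 in inhibitory neurons, 8.10 ± 2.70 in endothelial cells, 5.58 ± 0.81 in excitatory neurons and 2.94 ± 4.11 in microglia. The excitatory libraries lay between 4.48 and 6.63 CPM, and 6 of 12 microglia libraries had no Tet1 UMI. Mature oligodendrocytes were above inhibitory neurons in 9 of 12 libraries, endothelial cells above excitatory neurons in 10 of 12 and excitatory neurons above microglia in 9 of 12, and none of these passed (exact permutation p = 0.0146, 0.0151 and 0.0117, each adjusted to 0.123). Tet2 was low in every class, from 11.3 ± 4.5 CPM in astrocytes and 8.47 ± 4.12 in endothelial cells to 5.73 ± 0.73 in excitatory neurons and 3.49 ± 5.67 in newly formed oligodendrocytes. Its spread was above its mean in newly formed oligodendrocytes and below it in astrocytes, and no neighbours differed. Tet3 was at 47.8 ± 7.05 CPM in endothelial cells, 45.9 ± 14.5 in mature oligodendrocytes, 34.4 ± 21.6 in newly formed oligodendrocytes, 28.5 ± 2.22 in excitatory neurons, 27.5 ± 14.7 in OPC, 24.9 ± 7.0 in astrocytes, 19.3 ± 8.19 in microglia and 17.9 ± 6.73 in inhibitory neurons. The endothelial libraries (40.2 to 61.7 CPM) were all above the inhibitory ones (6.49 to 29.7).

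The 3 readers all had their highest mean level in the endothelial class, which also held pericyte and smooth muscle markers. Mbd2, which links methylated DNA to NuRD, ran from 36.7 to 51.2 CPM over the endothelial libraries, with a median of 43.3, from 4.41 to 23.7 in mature oligodendrocytes, with a median of 13.9, and from 5.20 to 8.72 in excitatory neurons, with a median of 6.91. The lowest endothelial library was above the highest mature oligodendrocyte library. Endothelial cells (43.8 ± 4.91 CPM) were above mature oligodendrocytes (13.7 ± 5.01) by 1.70 on the log2 scale in 12 of 12 libraries (exact permutation p = 0.000488, the smallest that 12 libraries allow, adjusted p = 0.0308). Without any 1 library the smallest possible p is 0.000977 and the pair no longer passed, while its log2 difference lay between 1.43 and 2.04 over all alternatives. The other classes followed at 12.9 ± 7.76 in OPC, 11.8 ± 3.71 in astrocytes, 9.94 ± 4.58 in microglia, 9.89 ± 7.64 in newly formed oligodendrocytes, 6.88 ± 1.1 in excitatory neurons and 6.47 ± 2.39 in inhibitory neurons. Mbd1, a reader tied to histone methylation, was at 31.7 ± 4.79 CPM in endothelial cells, 21.7 ± 12.9 in OPC, 18.6 ± 5.09 in inhibitory neurons, 18.2 ± 9.26 in astrocytes and 14.8 ± 1.36, the lowest, in excitatory neurons. Its step from endothelial cells to OPC was 0.94 on the log2 scale, higher in 10 of 11 libraries, and did not pass (exact permutation p = 0.0117, adjusted p = 0.123). Mbd3, the NuRD subunit that binds methylated DNA weakly, was at 43.7 ± 9.28 CPM in endothelial cells, 34.8 ± 18.1 in newly formed oligodendrocytes, 25.7 ± 4.80 in inhibitory neurons, 24.1 ± 3.46 in excitatory neurons, 22.2 ± 7.18 in OPC, 18.5 ± 6.39 in astrocytes and 15.3 in both mature oligodendrocytes and microglia. For Mbd3, endothelial cells were above newly formed oligodendrocytes in 7 of 11 libraries, which did not pass (exact permutation p = 0.167, adjusted p = 0.490).

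**Figure D1:**
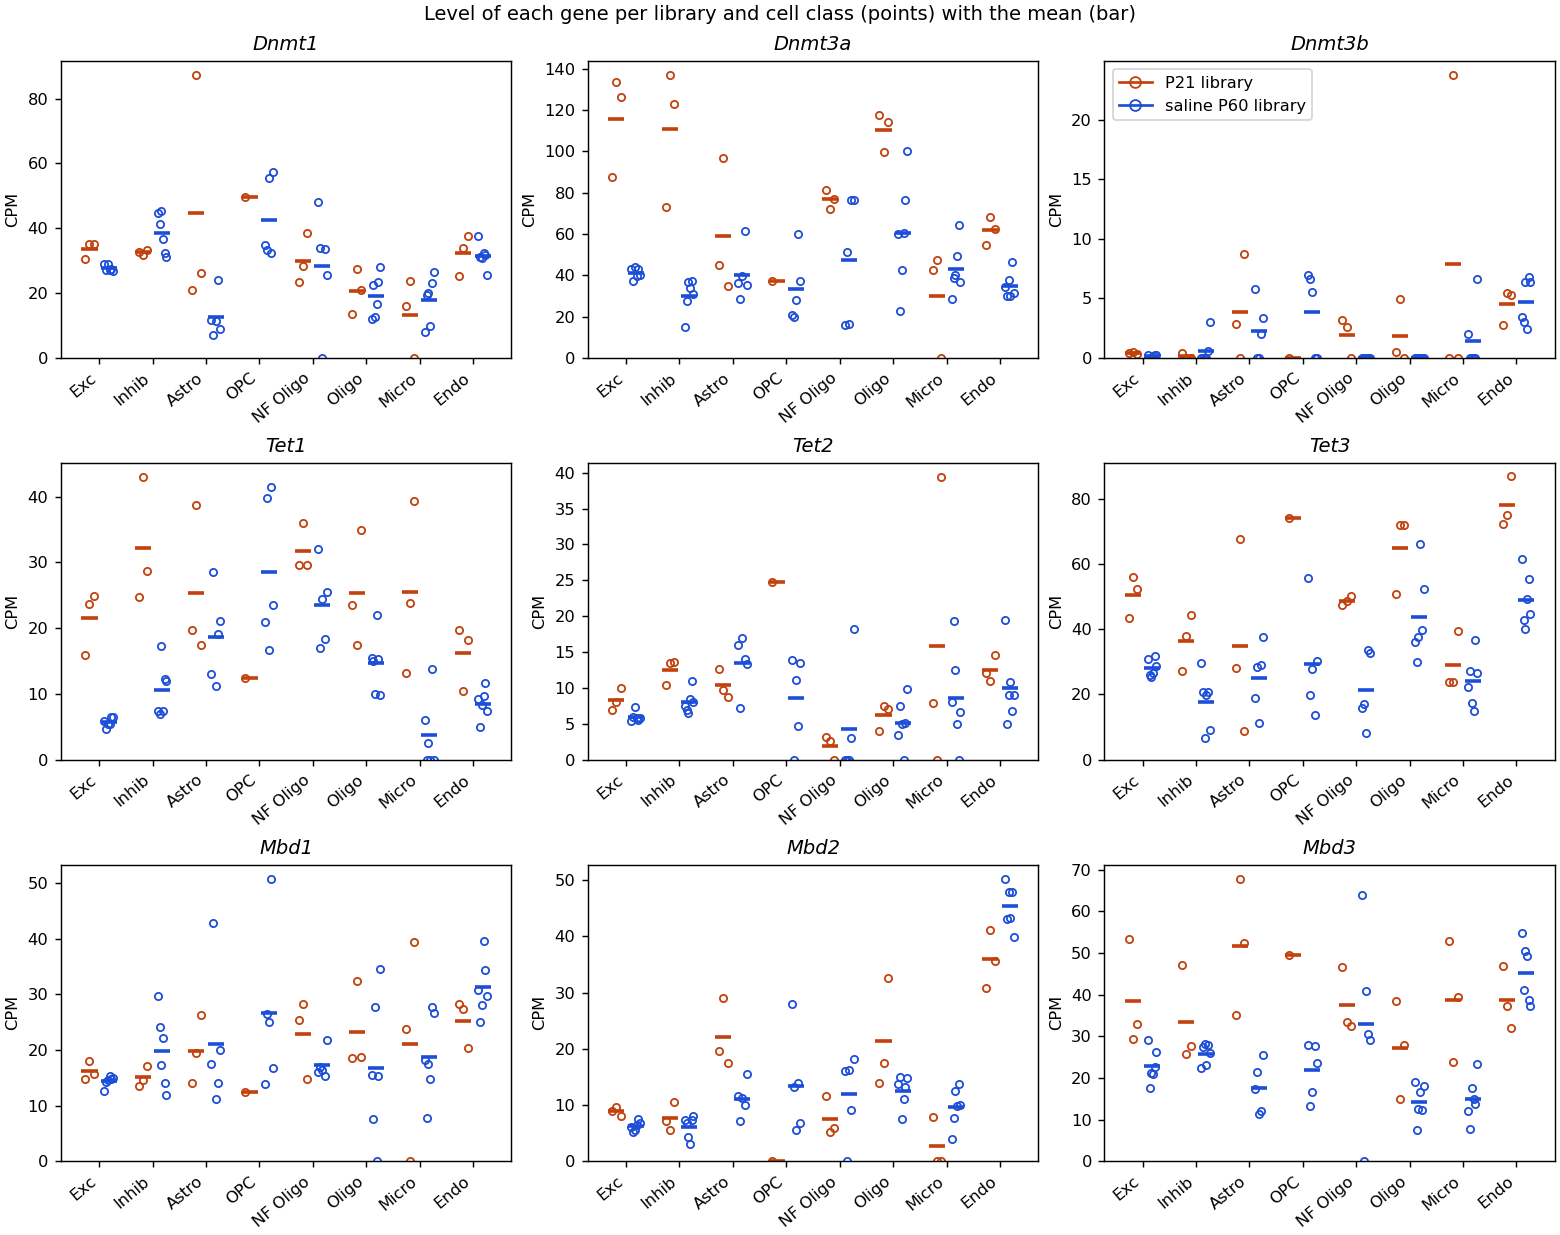
Each panel shows 1 gene, with the 8 cell classes on the x axis and the level in CPM on the y axis, and a point for each P21 (orange) and each saline P60 (blue) library with a bar at each mean. In excitatory neurons the P21 points of Dnmt3a (87.7 to 133 CPM) and Tet1 (15.9 to 24.9 CPM) lie above all saline P60 points, and Mbd2 stands highest in endothelial cells.

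Within the classes, levels also varied between the authors' finer clusters, given here as UMIs of all P60 libraries pooled for clusters of at least 50 cells, with no test. Dnmt1 was at 97.7 CPM in the cluster OPC_1 (23 UMIs in 53 cells, 95% Poisson interval 61.9 to 147, which covers counting error only) and at 21.1 to 45.8 CPM in the other 5 OPC clusters of that size. OPC_1 also held the dividing-cell markers Mki67 at 284 CPM, Top2a at 1057 CPM and Cdk1 at 726 CPM. OPC_6, next in these markers (Mki67 at 42.2 CPM, Top2a at 84.5 CPM and Cdk1 at 47.5 CPM), had the lowest Dnmt1, 21.1 CPM from 4 UMIs. Dnmt3a spanned 30.1 CPM in Oligo_3 to 133 CPM in Oligo_1 (120 UMIs in 172 cells) among mature oligodendrocytes, 18.2 in Endo_13 to 64.0 in Endo_2 among endothelial clusters, and 27.7 in Inhib_7 to 57.9 in Inhib_3 among inhibitory clusters. Mbd2 ran from 21.2 CPM in Endo_13 to 63.4 CPM in Endo_2, the same 2 clusters that were lowest and highest for Dnmt3a. Endo_2 also held the smooth muscle marker Acta2 at 935 CPM, against at most 21.2 CPM in the other endothelial clusters, and the pericyte marker Rgs5 at 5077 CPM, the highest of them, while the third marker of that list, Vtn, was at 1808 CPM there and reached 6804 CPM in Endo_5. Endo_13 held the endothelial marker Flt1 at 1425 CPM, against at least 2341 CPM in the other endothelial clusters, and the lowest Rgs5, at 1073 CPM. Another endothelial marker, Cldn5, was lowest in Endo_2, at 1257 CPM, with Endo_13 next at 1326 CPM. The part of these markers was not tested. Tet1 ran from 11.9 CPM in OPC_2 to 52.8 CPM in OPC_6.

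**Figure D2:**
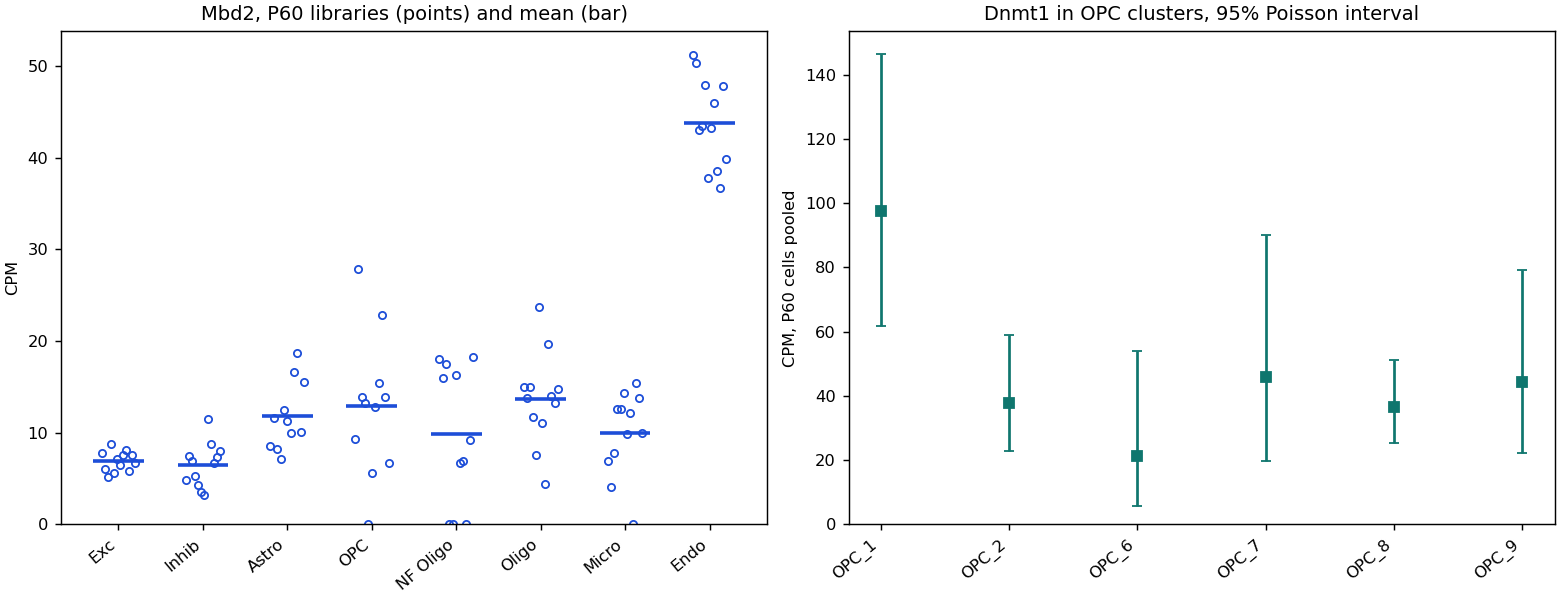
The left panel plots Mbd2 in CPM for each P60 library by cell class, and the right panel plots pooled P60 Dnmt1 in CPM for the 6 OPC clusters of at least 50 cells with 95% Poisson intervals. Endothelial Mbd2 (36.7 to 51.2 CPM) lies above every mature oligodendrocyte library, and Dnmt1 in OPC_1 is at 97.7 CPM with an interval of 61.9 to 147.

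The excitatory neurons formed 26 clusters. In saline P60 libraries the cluster means of Dnmt3a ran from 25.4 CPM in Exc_26 to 58.3 CPM in Exc_13, and those of Dnmt1 from 19.6 in Exc_7 to 39.7 in Exc_18. Tet1 ran from 1.77 CPM in Exc_2 to 8.54 CPM in Exc_11, and Tet3 from 17.6 in Exc_21 to 39.3 in Exc_13. Exc_13 was thus highest for both Dnmt3a and Tet3. Mbd1 ran from 9.93 CPM in Exc_25 to 20.0 CPM in Exc_1, Mbd2 from 3.30 in Exc_1 to 12.6 in Exc_23, and Mbd3 from 13.3 in Exc_10 to 45.0 in Exc_26. Exc_18, highest for Dnmt1, expressed the deep-layer markers Foxp2 and Syt6, and Exc_21, lowest for Tet3, expressed Etv1. These markers are named without a comparison between clusters, so no layer is assigned to either cluster.

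For 8 of the members the genes with the most similar profile are given, sought over 82 P60 clusters and 13917 genes by Pearson's r of log2(CPM + 1). Clusters share libraries and depth, so these are descriptions. Dnmt1 was nearest to Banf1 (r = 0.74), Dnmt3a to Gm13520 (0.65), Dnmt3b to Aldh2 (0.77), Tet1 to Srgap1 (0.76), Tet3 to Zc3h7b (0.73), Mbd1 to Cav1 (0.72), Mbd2 to 1700029G01Rik (0.80) and Mbd3 to Otud4 (0.76). The second gene for Mbd2 was Slco1a4 (0.80), a transporter of brain endothelium.

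Most calls in the set were between ages. Dnmt3a, Tet1, Tet3 and Mbd3 were lower in P60 than in P21 excitatory neurons, Dnmt3a, Tet1 and Tet3 were lower in P60 inhibitory neurons and endothelial cells, and Dnmt3a was lower in P60 mature oligodendrocytes, while no member was called higher at P60 in any class. That made 11 calls in all. UMIs of each class were summed per library, and the 3 P21 libraries were compared with the 6 saline P60 libraries by the quasi-likelihood test of edgeR, with p-values adjusted over all genes tested. Calls needed both an adjusted p below 0.05 and more than a 1.5-fold change. Log2 changes below are P60 minus P21, so negative values are lower at P60.

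In excitatory neurons 8 of the 9 members passed the filter on low counts and 4 were called lower at P60, against 11.1% of all 13245 genes tested. Dnmt3a was at 87.7, 133 and 126 CPM in the P21 libraries and between 37.2 and 43.8 CPM, with a median of 41.5, in the saline P60 libraries. The lowest P21 library was above the highest P60 library. The log2 change was -1.43 (SE 0.11, edgeR adjusted p = 5.55e-06), or 2.69-fold lower at P60. Tet1 was at 15.9, 23.6 and 24.9 CPM at P21 and between 4.71 and 6.47 CPM, with a median of 5.62, at P60. Again no libraries overlapped, and the change of -1.82 (SE 0.14, adjusted p = 5.55e-06), or 3.54-fold, was the largest of the set in this class. Tet3 was at 43.5, 56.0 and 52.3 CPM at P21 and between 25.4 and 31.9 CPM at P60, without overlap, a change of -0.78 (SE 0.10, adjusted p = 7.86e-05).

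Mbd3 was at 53.3, 29.3 and 33.0 CPM in the P21 excitatory neurons and between 17.6 and 29.1 CPM at P60, with a median of 21.9. P21 library 1 stood apart and the other P21 libraries were just above the highest P60 library. The change was -0.71 (SE 0.18, edgeR adjusted p = 0.00809), and without P21 library 1 it was -0.39 (adjusted p = 0.0297), which is under 1.5-fold and no longer a call. Against the saline libraries of 15 days of withdrawal alone, Mbd3 changed by -0.65 (adjusted p = 0.155). Tet2 and Mbd2 passed the p threshold and not the fold. Tet2 was at 6.91, 8.02 and 10.0 CPM at P21 and 5.37 to 7.26 CPM at P60, with overlap at the latter library, and changed by -0.42 (SE 0.15, adjusted p = 0.0415). Mbd2 was at 8.88, 9.74 and 7.98 CPM at P21 and 5.20 to 7.53 CPM at P60 without overlap, and changed by -0.41 (SE 0.13, adjusted p = 0.0208).

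Dnmt1 and Mbd1 did not pass in excitatory neurons. Dnmt1 was at 30.6, 35.0 and 35.0 CPM at P21 and 26.9 to 29.1 CPM at P60, a log2 change of -0.21 (SE 0.08, edgeR adjusted p = 0.0623), and its libraries did not overlap although the difference was small. Mbd1 was at 14.8, 17.99 and 15.7 CPM at P21 and 12.5 to 15.3 CPM at P60, a change of -0.09 (SE 0.10, adjusted p = 0.501). Dnmt3b had too few counts to be tested, with 22 UMIs at P21 and 17 UMIs in the saline P60 libraries.

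The excitatory cells also differed between ages in depth and in traces of other cells. Median UMIs per cell were 9233 at P21 and 13620 at P60, and median mitochondrial shares were 3.40% and 2.33%. Cells of at least 2000 UMIs were thinned to 2000 UMIs and the rest were left out, 633 cells over all classes and libraries. After thinning, Dnmt3a was at 125 ± 28.0 CPM at P21 (n = 3) and 43.5 ± 7.05 at P60 (n = 6), Tet1 at 24.8 ± 6.65 and 5.81 ± 1.52, Tet3 at 53.6 ± 9.97 and 26.9 ± 4.17, and Mbd3 at 40.1 ± 12.0 and 23.0 ± 3.91. The 8 marker lists of other cells were detected, with no marker at 0, in excitatory neurons, and 6 of them did not overlap between ages. Summed marker levels in the excitatory cells were 31.0 to 73.5 CPM at P21 and 5.15 to 25.4 CPM at P60 for endothelial cells, 10.4 to 41.3 and 1.21 to 9.93 for mature oligodendrocytes, 8.85 to 10.5 and 0.362 to 4.46 for inhibitory neurons, 20.2 to 27.2 and 5.82 to 14.4 for pericytes, 4.42 to 7.79 and 0.362 to 1.25 for newly formed oligodendrocytes, and 2.1 to 5.02 and 0.224 to 1.60 for OPC. Astrocyte markers (7.48 to 25.1 and 1.57 to 14.4 CPM) and microglia markers (9.89 to 55.7 and 4.70 to 13.6 CPM) overlapped. A further list, the inhibitory subclass markers Sst, Pvalb and Vip, summed to 28.5 to 37.1 CPM at P21 and 1.57 to 12.4 CPM at P60. That list was also higher at P21 without overlap in endothelial cells, astrocytes and microglia, and overlapped in mature and newly formed oligodendrocytes. In endothelial cells at P21 the same endothelial markers summed to 6648 to 11977 CPM. The part of these traces and of depth in the age results was not tested beyond thinning.

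**Figure D3:**
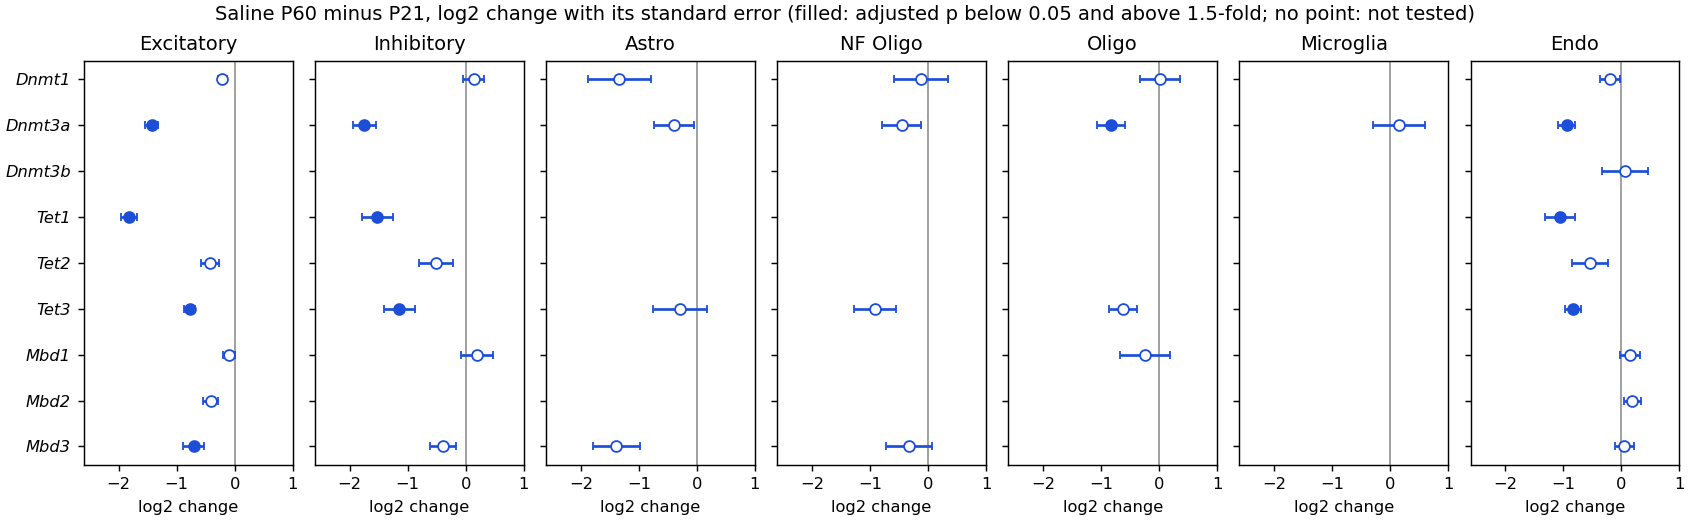
Log2 change (saline P60 minus P21, edgeR, x axis) with its SE for each member tested in each class, with filled points for calls. All 11 filled points lie left of 0, led by Tet1 at -1.82 in excitatory and Dnmt3a at -1.75 in inhibitory neurons.

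In inhibitory neurons 7 members were tested and 3 were called lower at P60, against 8.29% of 8898 genes. Dnmt3a was at 73.0, 137 and 123 CPM at P21 and 14.8 to 37.2 CPM at P60, with a median of 32.3 and no overlap. It changed by -1.75 (SE 0.20, edgeR adjusted p = 2.95e-05). Tet1 was at 24.7, 43.0 and 28.7 CPM at P21 and 6.87 to 17.3 CPM at P60, also without overlap, and changed by -1.52 (SE 0.26, adjusted p = 0.000797). Tet3 was at 27.1, 38.0 and 44.3 CPM at P21 and 6.49 to 29.7 CPM at P60, so that P21 library 1 fell within the P60 range. It changed by -1.14 (SE 0.27, adjusted p = 0.00711), and by -0.97 (adjusted p = 0.0535) without P21 library 3. The log2 changes of the rest were 0.14 for Dnmt1, -0.51 for Tet2, 0.19 for Mbd1 and -0.39 for Mbd3, with adjusted p of 0.718, 0.225, 0.701 and 0.232. The saline P60 libraries held 19 to 204 inhibitory cells. The summed subclass markers Sst, Pvalb and Vip were at 13604 to 14986 CPM at P21 and 2941 to 11062 CPM at P60. Cell numbers of inhibitory clusters also differed, for example 341 P21 and 112 P60 cells in Inhib_2 and 76 and 392 in Inhib_7 (cocaine and saline together). Microglia markers in these cells also separated, at 30.2 to 38.8 CPM at P21 and 0 to 19.0 CPM at P60. The part of these markers and cell numbers in the age changes was not tested. Of the 3 inhibitory clusters with enough cells, Dnmt3a was higher in every P21 than in every P60 library in all 3, at 80.1 to 100 and 16.9 to 54.4 CPM in Inhib_2, 33.6 to 111 and 21.7 to 31.6 CPM in Inhib_7, and 117 to 197 and 29.9 to 46.1 CPM in Inhib_9. No member was called in these clusters, where 1.35% of all tests gave lower calls, and Dnmt3a changed by -1.62 in Inhib_2 and -1.26 in Inhib_7 (edgeR adjusted p = 0.0589 and 0.0897), while it did not pass the filter in Inhib_9.

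In endothelial cells all 9 members were tested and 3 were called lower at P60, against 7.35% of 10415 genes. Dnmt3a was at 54.5, 68.0 and 62.4 CPM at P21 and 30.01 to 46.4 CPM at P60, with no overlap, and changed by -0.94 (SE 0.14, edgeR adjusted p = 0.000388). Tet3 was at 72.4, 75.2 and 87.2 CPM at P21 and 40.2 to 61.7 CPM at P60, with no overlap, and changed by -0.83 (SE 0.14, adjusted p = 0.000712). Tet1 was at 19.7, 10.5 and 18.2 CPM at P21 and 5.00 to 11.6 CPM at P60, where P21 library 2 overlapped. It changed by -1.06 (SE 0.26, adjusted p = 0.0102), and lost the call without P21 library 1 (-0.88, adjusted p = 0.0541) or P21 library 3 (-0.97, adjusted p = 0.0612) and against the 15-day saline libraries alone (-0.95, adjusted p = 0.0952). The 3 readers, highest in this class at P60, did not pass, with changes of 0.15 for Mbd1, 0.19 for Mbd2 and 0.05 for Mbd3 (adjusted p = 0.614, 0.401 and 0.886). Nor did Dnmt1 (-0.19, adjusted p = 0.496), Dnmt3b (0.07, adjusted p = 0.944) or Tet2 (-0.54, adjusted p = 0.270). Dividing-cell markers in endothelial cells summed to 13.6 to 26.9 CPM at P21 and 0 to 1.92 CPM at P60, with Mki67 at 0 at P60, pericyte markers to 3735 to 4653 and 4954 to 7159 CPM, and astrocyte markers to 127 to 159 and 57.6 to 117 CPM. Their part was not tested.

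In mature oligodendrocytes 4 members were tested and only Dnmt3a was called lower at P60, against 10.3% of 5101 genes. It was at 118, 99.6 and 114 CPM at P21 and 22.5 to 100.1 CPM at P60, with a median of 60.4, and P21 library 2 overlapped the highest P60 library. It changed by -0.84 (SE 0.24, edgeR adjusted p = 0.0188), and the call was lost without P21 library 1 (-0.80, adjusted p = 0.0616), with equal numbers of cells (-1.13, adjusted p = 0.0601) and against the 15-day saline libraries alone (-0.49, adjusted p = 0.186). Tet3 was at 51.0, 72.2 and 72.3 CPM at P21 and 30.03 to 66.2 CPM at P60 and did not pass (-0.62, adjusted p = 0.0695), although it was called without P21 library 1 (-0.85, adjusted p = 0.0324) or without library 7 (-0.73, adjusted p = 0.0388). Mbd3, under the filter here, was called lower with no filter, with all 12 P60 libraries, with P21 libraries 2 and 3 summed and without P21 library 2, with changes from -0.998 to -1.28. Markers of newly formed oligodendrocytes in these cells summed to 182 to 210 CPM at P21 and 59.1 to 158 CPM at P60, those of microglia to 25.6 to 144 and 6.88 to 19.4 CPM, and those of OPC to 4.98 to 7.0 and 0 to 3.28 CPM. Their part was not tested. In astrocytes 4 members were tested and 0 called by edgeR, with 2 at an unadjusted p below 0.05 and 0 by DESeq2, against 0.984% of 5791 genes called lower. Astrocyte Mbd3 was at 35.1, 67.8 and 52.4 CPM at P21 from 25, 7 and 6 UMIs, and at 11.3 to 25.5 CPM in the saline P60 libraries used. It changed by -1.39 (SE 0.40, edgeR adjusted p = 0.119), and it was called with the deposited class column (-1.34, adjusted p = 0.0380). Astrocyte Mbd3 met the filter on low counts only through its P21 libraries, so a lower level at P60 was favoured in advance. Of 4 members tested in newly formed oligodendrocytes 0 were called, with 1 at an unadjusted p below 0.05 and 0 by DESeq2, against 1.19% of 4693 genes. That was Tet3, at 47.6, 48.8 and 50.2 CPM at P21 and 8.1 to 33.7 CPM in the 5 saline P60 libraries used, without overlap (-0.91, SE 0.36, edgeR adjusted p = 0.223). Those 5 saline libraries held 11 to 60 of these cells and 1, 1, 1, 11 and 9 Tet3 UMIs. The cocaine P60 libraries, not part of this test, were at 63.2, 52.3, 60.1, 0, 48.5 and 46.6 CPM, so the separation does not hold for P60 as a whole. Tet3 met the filter on low counts here only through its P21 libraries. In microglia Dnmt3a alone was tested and was not called (0.16, SE 0.45, edgeR adjusted p = 1.00, unadjusted p above 0.05, 0 calls by DESeq2), against 0.701% of 3993 genes called lower. OPC could not be tested, since 1 P21 library alone held 10 or more of them.

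The lower P60 level of Dnmt3a held across nearly all excitatory clusters. It was called lower in 25 of 26 clusters, where 6.73% of all 167898 tests of genes in clusters gave lower calls. The changes ran from -1.80 in Exc_21 (SE 0.25, 68.7 to 158 CPM at P21 and 14.1 to 59.4 CPM at P60) to -0.58 in Exc_2 (SE 0.21, 73.3 to 100.1 and 36.5 to 69.2 CPM, edgeR adjusted p = 0.0692), the cluster that was not called. Every P21 library was above every saline P60 library in 25 of the 26 clusters, the exception being Exc_3 (59.6 to 135 and 41.0 to 67.2 CPM), which was called at -1.03 (adjusted p = 0.00394). Tet1 passed the filter on low counts in 7 clusters and was called in all 7, from -1.38 to -3.75, but a gene this low passes only where its P21 level is high, so the 7 do not stand for the 26. Its mean was higher at P21 in 25 of 26 clusters and its libraries did not overlap in 19. Tet3 was tested in all 26, with a negative change in all 26, and was called lower in 13, from -0.73 in Exc_16 to -1.09 in Exc_15 among those called, and its libraries did not overlap in 17. Mbd3 was called in 11 of 23 clusters, while its libraries did not overlap in 8 of 26, with the steepest change in Exc_1 (-1.32, SE 0.36, adjusted p = 0.0115), and had a positive change in 1, Exc_18 (0.24, adjusted p = 0.711). Mbd1 was called in 1 of 9, Exc_25 (-0.84, adjusted p = 0.0113). Dnmt1 was called in 0 of 23, Tet2 and Mbd2 in 0 of 1 each, and Dnmt3b could not be tested in any. These 57 calls fell to 37 with DESeq2 and to 29 against the 15-day saline libraries alone. How often the libraries of both ages fail to overlap over all genes was not counted. The clusters also share the same libraries, so the counts of clusters without overlap are descriptions.

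**Figure D4:**
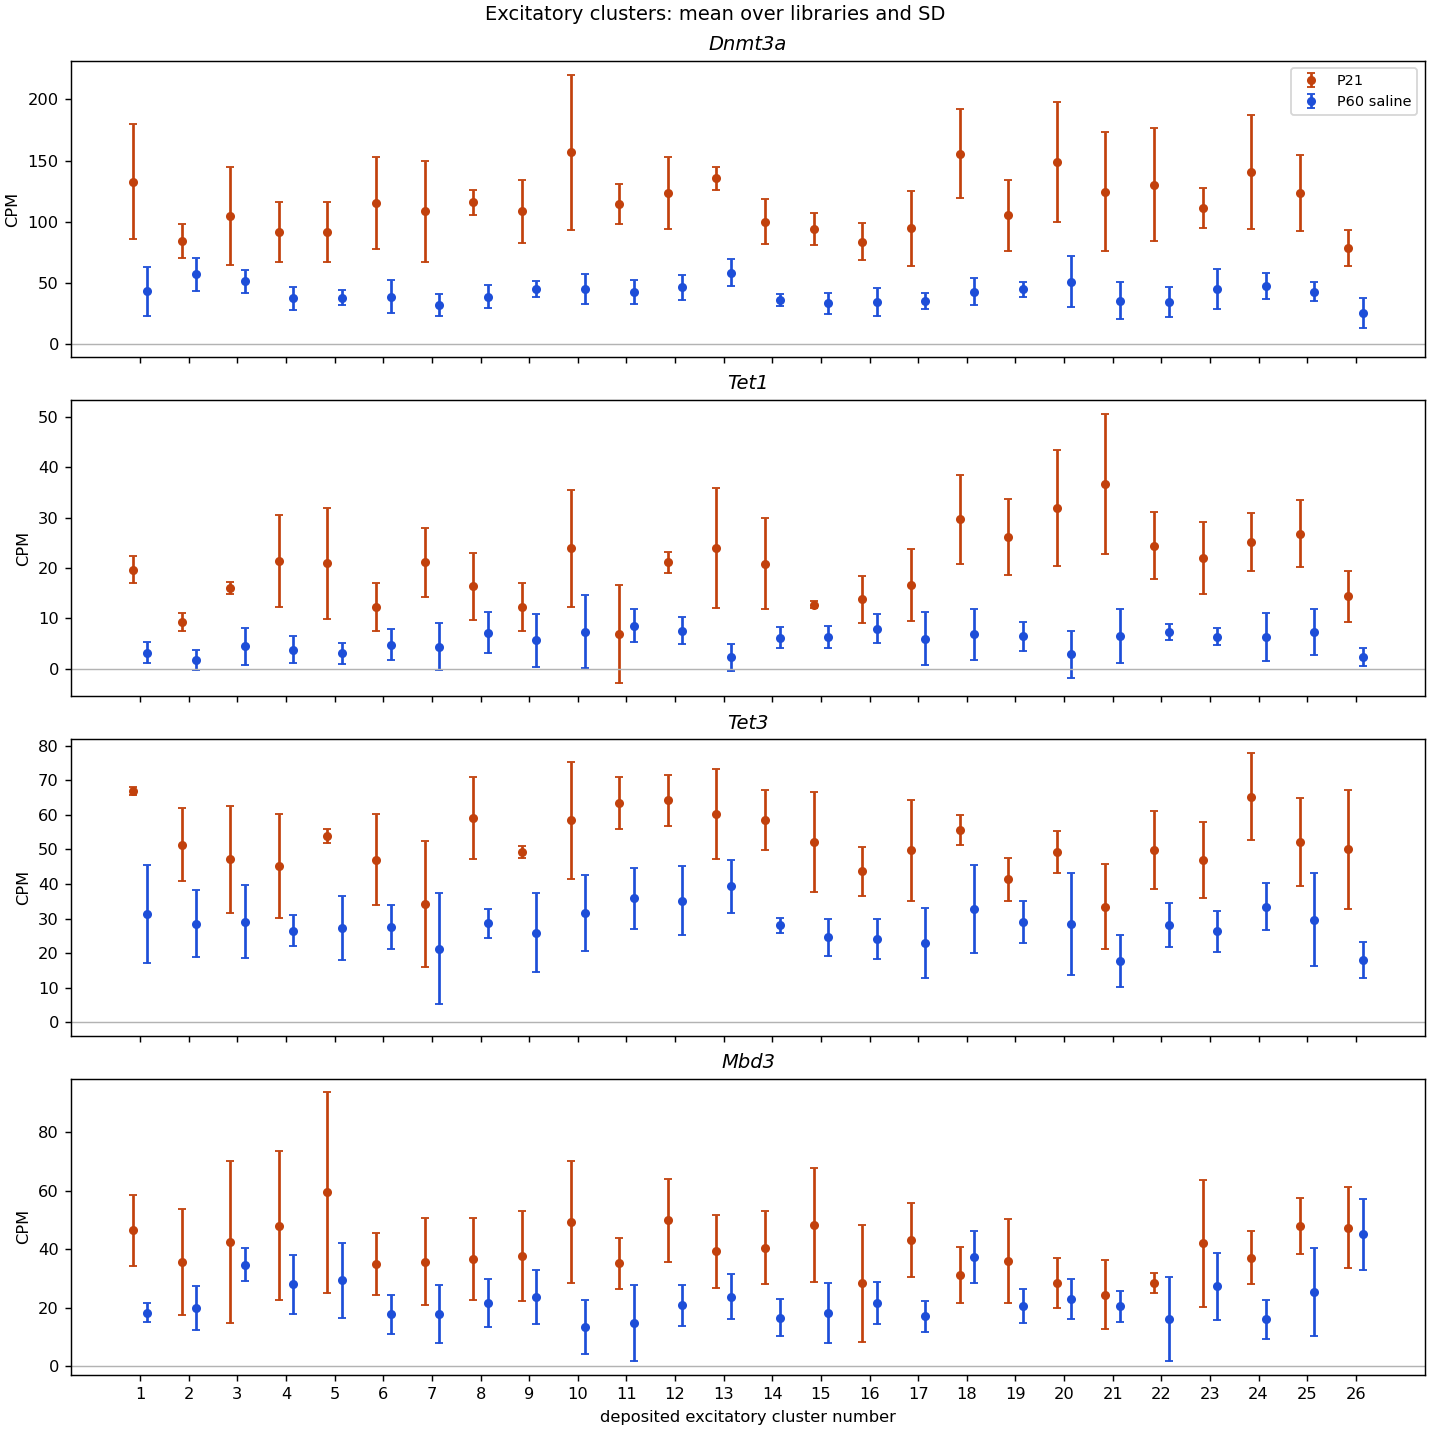
Mean level in CPM over the P21 libraries (orange) and the saline P60 libraries (blue), with SD, of Dnmt3a, Tet1, Tet3 and Mbd3 in each of the 26 excitatory clusters (x axis). For Dnmt3a and Tet3 the P21 mean is the higher in all 26 clusters.

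Levels across the classes at P21 are given as means of 3 libraries with no test. Dnmt3a at P21 was at 116 ± 24.6 CPM in excitatory neurons (SD), 111 ± 33.6 in inhibitory neurons and 110 ± 9.54 in mature oligodendrocytes, followed by newly formed oligodendrocytes (76.7 ± 4.78), endothelial cells (61.7 ± 6.78), astrocytes (58.9 ± 33.3) and microglia (29.9 ± 26.1). In the 6 saline P60 libraries the means were 41.1 ± 2.62 CPM in excitatory neurons, 30.1 ± 8.33 in inhibitory neurons and 60.5 ± 26.8 in mature oligodendrocytes. Tet1 at P21 was at 32.1 ± 9.62 CPM in inhibitory neurons, 31.7 ± 3.67 in newly formed oligodendrocytes, 25.5 ± 13.2 in microglia, 25.3 ± 8.9 in mature oligodendrocytes, 25.3 ± 11.7 in astrocytes, 21.5 ± 4.83 in excitatory neurons and 16.1 ± 4.94 in endothelial cells. The P21 microglia mean of Tet1 rests on 5, 1 and 1 UMIs and that of Dnmt3a on 16, 2 and 0. The P21 astrocyte mean of Tet1 rests on 14, 4 and 2 UMIs, so these places in the order are uncertain. Tet3 was at 78.2 ± 7.86 CPM in endothelial cells and 36.5 ± 8.7 in inhibitory neurons, its highest and among its lowest levels at both ages. Mbd2 was again highest in endothelial cells, at 35.9 ± 5.13 CPM, and Dnmt3b was again near 0 in excitatory neurons, at 0.401 ± 0.0968 CPM.

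Whether the age change differed between excitatory neurons and another class was tested within libraries, by an exact permutation test of the difference between both classes in log2(CPM + 1), over 54 pairs of member and class. None of the 54 passed (smallest adjusted p = 0.143). With 3 and 6 libraries the smallest p is 0.0119, so over 54 tests a pair could pass only if many pairs reached it, and the lack of a call says little. It was reached by Dnmt3a against endothelial cells (changes of -1.45 and -0.81 on this scale), Dnmt3a against microglia, Mbd2 against endothelial cells (-0.45 and 0.33) and Mbd3 against endothelial cells (-0.69 and 0.22). Whether the age change differs between classes was thus not settled by this test.

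Of 46 other genes of the pathway, grouped in 5 lists, a minority moved with age. In excitatory neurons 5 of 16 genes of the steps after oxidation and Tet partners were called lower at P60, against 11.1% of all genes, namely the thymine-DNA glycosylase Tdg (29.2 ± 5.75 CPM at P21 and 17.0 ± 1.13 at P60, log2 change -0.72), the stress-inducible Gadd45a (-1.27) and Gadd45g (174 ± 14.9 and 69.2 ± 14.8 CPM, -1.25), the dehydrogenase Idh2 (-0.86), which makes the Tet cosubstrate oxoglutarate, and Cxxc4 (-0.61), which binds unmethylated CpG. The median log2 change of these 16 was -0.04, and that of all genes -0.00. Higher calls were made for 8.18% of genes in this class, among them the Dnmt1 partner Dmap1 (0.64) of 3 maintenance and targeting genes tested, the glycosylase Mbd4 (0.59) and the imprinting factor Zfp57 (0.73) of 8 other readers (median 0.12), and Mta3 (0.82) of 12 NuRD partners (median 0.08). Of those partners Chd3, a NuRD helicase, was called lower (138 ± 10.7 and 72.0 ± 8.14 CPM, -0.87). In inhibitory neurons Tdg (-1.02), Gadd45a (-1.68) and Gadd45g (-0.68) of 13 tested and the reader Zbtb33 (-0.91) of 7 tested were called lower, against 8.29% of genes there. In endothelial cells, where 14 genes of the steps after oxidation were tested (median -0.44), the repair enzyme Apex1 (-0.72), Gadd45a (34.4 ± 17.1 and 5.51 ± 3.40 CPM, -2.78) and Cxxc5 (-0.63) were called lower, against 7.35% of genes, while Gadd45g (119 ± 11.2 and 290 ± 24.4 CPM, 1.14) and Zbtb4 (0.70) were called higher, as were 5.31% of genes there. Gadd45g thus moved in opposite directions in excitatory neurons and endothelial cells, a difference that was not tested. In mature oligodendrocytes Idh1 (-0.87) was called lower, as were 10.3% of genes, and the NuRD subunit Rbbp7 (1.22) higher, the latter with 7.55% of genes. No gene of the list for S-adenosylmethionine, the methyl donor, was called in excitatory neurons, where 4 were tested, or in the other classes.

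Cocaine gave no call for any member. Within each time point cocaine was compared with saline in edgeR over all 12 P60 libraries, which share the estimate of spread. Of 103 tests of members in classes, 29 at maintenance, 37 at 48 hours and 37 at 15 days of withdrawal, 0 were called by edgeR, 6 had an unadjusted p below 0.05, DESeq2 called 0, and the smallest adjusted p was 0.735. Over all genes and classes 0.0115% of tests were called at maintenance, 0.00827% at 48 hours and 0.339% at 15 days, so few genes of any kind passed with 2 libraries a group. Astrocytes, OPC and newly formed oligodendrocytes could not be tested at maintenance, and no member passed the filter on low counts in newly formed oligodendrocytes at the later times.

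Dnmt3a in excitatory neurons was at 38.8 and 37.4 CPM with cocaine and 43.2 and 37.2 CPM with saline at maintenance, 38.2 and 36.6 against 43.8 and 39.6 CPM at 48 hours, and 41.3 and 36.6 against 43.1 and 40.0 CPM at 15 days. Cocaine and saline values overlapped at maintenance and at 15 days, and both cocaine values were below both saline values at 48 hours. The log2 change over time points was -0.11 (SE 0.07). Tet1 was at 4.48 and 5.98 CPM with cocaine and 5.82 and 4.71 CPM with saline at maintenance, 4.52 and 4.78 against 5.42 and 5.38 CPM at 48 hours, and 6.63 and 6.28 against 6.46 and 6.47 CPM at 15 days. As for Dnmt3a, the groups separated at 48 hours alone, with cocaine the lower. With 2 libraries a group such a separation carries little weight, and neither gene was called. Over the time points the log2 changes of the others in excitatory neurons were -0.03 for Dnmt1 (SE 0.07), -0.06 for Tet1, -0.11 for Tet2 (SE 0.12), 0.03 for Tet3 (SE 0.07), 0.07 for Mbd1, 0.27 for Mbd2 (SE 0.12) and 0.15 for Mbd3. Of the 37 tests over time points edgeR called 0, with 2 at an unadjusted p below 0.05 and a smallest adjusted p of 0.559, against 0.00496% of all tests, and of 37 tests for a difference between time points it called 0, with 1 at an unadjusted p below 0.05, against 0.00992%.

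**Figure D5:**
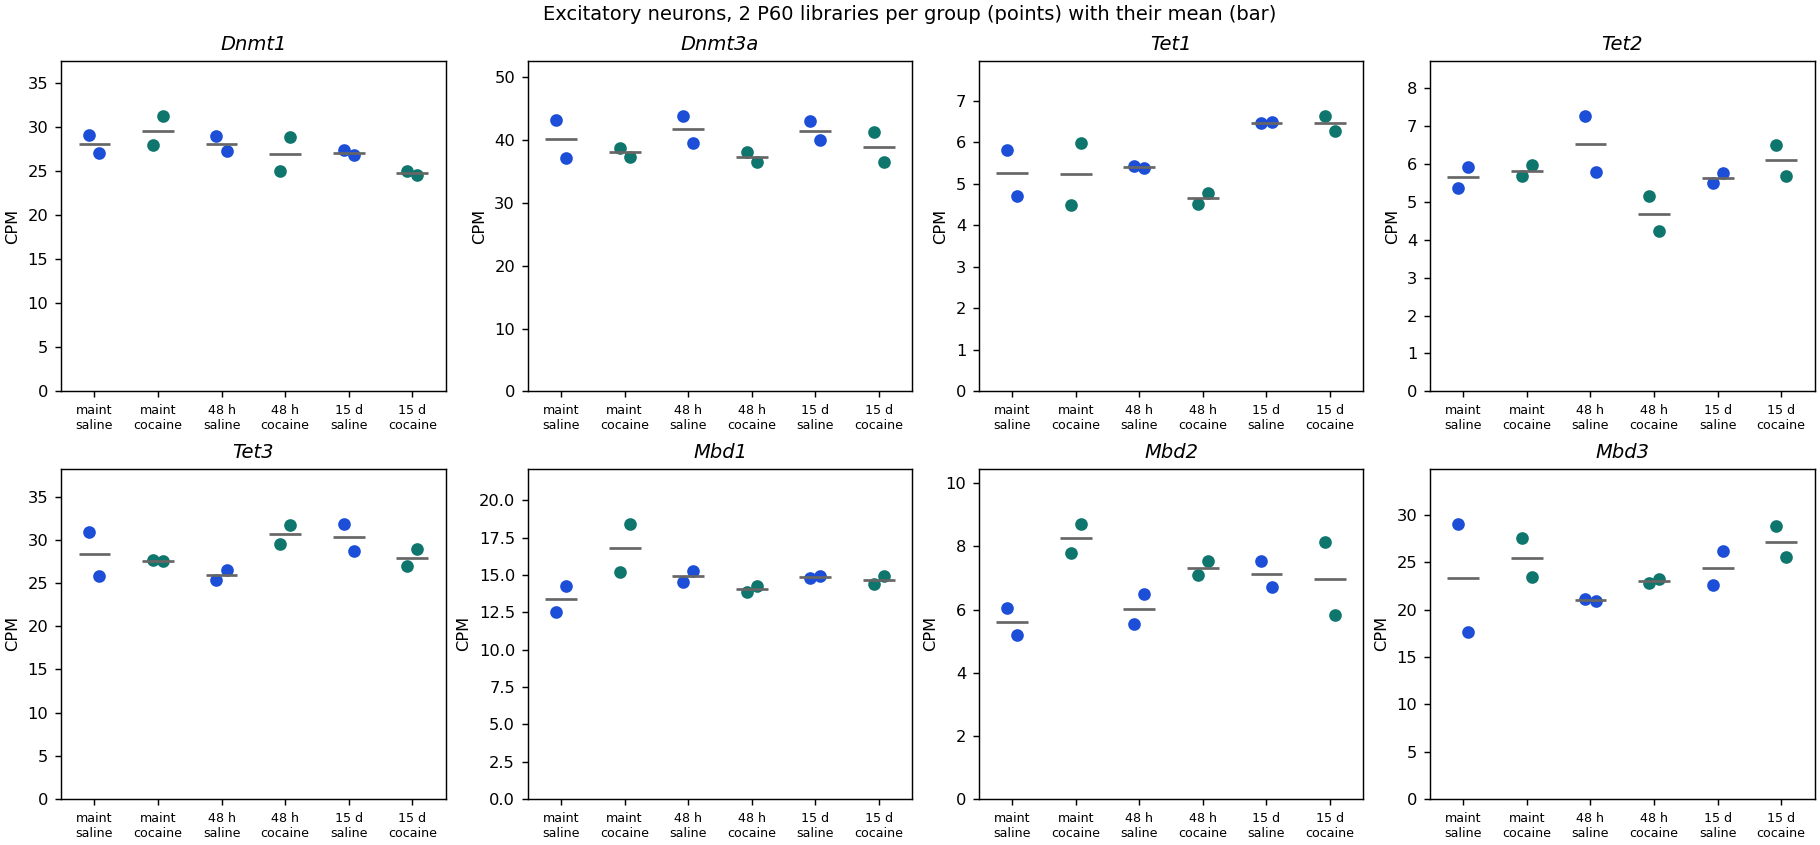
Level in CPM (y axis) of 8 members in excitatory neurons of each P60 library by time point (x axis), with saline in blue, cocaine in green and a bar at the mean of each group of 2. Dnmt3a lies between 36.6 and 43.8 CPM in all 12 libraries.

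The members with the lowest unadjusted p are given as values only. Mbd2 in excitatory neurons was at 7.78 and 8.72 CPM with cocaine and 6.04 and 5.20 CPM with saline at maintenance (log2 change 0.55, SE 0.24, edgeR adjusted p = 0.735), without overlap. At 48 hours it was at 7.1 and 7.53 against 5.54 and 6.5 CPM, and at 15 days at 8.12 and 5.82 against 7.53 and 6.73 CPM, where the groups overlapped. Tet2 in excitatory neurons was at 5.16 and 4.22 CPM with cocaine and 7.26 and 5.78 CPM with saline at 48 hours (-0.49, SE 0.21, adjusted p = 0.980). Dnmt3a was at 34.1 and 60.5 against 14.8 and 27.5 CPM in inhibitory neurons at maintenance (1.15, SE 0.51), from 34 and 48 cells against 19 and 28. It was also at 52.5 and 60.8 against 28.3 and 38.7 CPM in microglia at maintenance (0.84, SE 0.38), and at 108 and 61.8 against 42.7 and 60.7 CPM in mature oligodendrocytes at 48 hours (0.82, SE 0.38, adjusted p = 0.870). Mbd3 in endothelial cells was at 24.5 and 37.2 CPM with cocaine and 50.5 and 49.2 CPM with saline at 48 hours (-0.59, SE 0.25, adjusted p = 0.815). The groups did not overlap in any of these 6 low-p comparisons. All were picked by low unadjusted p, so the separation adds nothing to those p-values. An unadjusted p below 0.05 in 6 of 103 tests is about the share that this threshold gives with no effect. The 46 other pathway genes gave 628 tests over time points and classes, of which edgeR called 0 and 33 had an unadjusted p below 0.05.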

How the data were processed

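Cells were dissociated from PFC, captured on the 10x Chromium platform and sequenced. The deposited files hold raw UMI counts per gene and cell, which the authors obtained by alignment to the mouse genome NCBIM37 and filtered on genes per cell and mitochondrial share with Seurat 2.1.0, removing likely doublets by their high gene numbers. The deposited cell table gives class, cluster, age and treatment, and the mitochondrial share of each cell as a fraction. No columns of the authors' own comparisons were used. Class labels followed the deposited clusters. The separate class column differed from them for 459 P21 cells (4.36%) and 33 P60 cells (0.133%) and was run as an alternative added after seeing the data.

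Here, genes of mitochondria (13) and of ribosomal proteins (143) were set aside. They took 8.83% to 11.1% of the UMIs of a library. Of the 26145 genes listed, 25989 were kept, and 304 symbols were repeats. UMIs were summed per library and class or cluster with at least 10 cells, and a group needed 2 libraries. Sums were tested with edgeR 4.0.16 (filterByExpr, TMM, quasi-likelihood, Benjamini-Hochberg adjustment over all genes tested in a fit) in R 4.3.3. CPM were computed from the same sums. P21 and saline P60 libraries were compared with no covariate, and cocaine with saline over all 12 P60 libraries with 6 group means. Levels within libraries were compared with exact permutation tests on log2(CPM + 1) in scipy 1.17.1. Simulated counts were run through the age fit and the 15-day cocaine contrast of excitatory and inhibitory neurons, endothelial cells and microglia only. Alternatives were DESeq2 1.42.0, its size factors in edgeR, no filter, at least 30 cells, equal numbers of cells and a pseudocount of 5. Further ones were cells of at least 2000 UMIs thinned to 2000, all 12 P60 libraries, and only the saline libraries of 15 days. The last were P21 libraries 2 and 3 summed and each library left out. Each named gene was a member or a gene of 5 pathway lists called in any class, except that genes nearest in profile (1 or 2 per member, over clusters of at least 50 cells and genes of at least 10 CPM in a cluster) and cell markers are named too. The members and lists were chosen with earlier results of these data known. Nothing in the sources used here says that libraries of a group came from separate litters or days, so p-values measure the spread between libraries, and intervals cover counting error only. The gene nearest in profile to Tet2 is not reported here.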

Additional observations from a re-analysis of the deposited data

Results flagged for a closer look

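In 37 groups of saline P60 libraries (a member in a class), the highest or lowest library was set against the others by Dixon's test at its 95% critical value, which chance exceeds in about 1 in 20 groups. It was exceeded in 2. Tet2 in excitatory neurons was at 7.26 CPM (59 UMIs) in library 5, a saline library of 48 hours of withdrawal, while the other 5 were at 5.37 to 5.92 CPM. This library sets the overlap of Tet2 between ages. Dnmt1 in astrocytes was at 24.1 CPM (24 UMIs) in library 11, a saline library of 15 days of withdrawal, while the other 4 were at 7.14 to 11.6 CPM.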

How the results depend on the processing

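Of 11 calls between ages in classes, the count was 9 to 12 with 1 library left out and 8 to 13 under the other alternatives. Dnmt3a, Tet1 and Tet3 in excitatory neurons, Dnmt3a in inhibitory neurons, and Dnmt3a and Tet3 in endothelial cells kept their calls under all 18 alternatives. The count of 57 calls in clusters was 44 to 54 with 1 library left out, 37 with DESeq2, 29 against the saline libraries of 15 days alone, 38 with at least 30 cells per library and 67 with no filter on low counts, and the cause was not tested. The single difference between neighbouring classes, Mbd2, went to 0 with any 1 library left out and over the 6 saline libraries alone, where the smallest possible p limits the test, and there were 2 with cells thinned to 2000 UMIs. The cocaine comparisons and the differences of the age change between classes gave 0 calls throughout. No called value turned its direction. Depth limits Dnmt3b, with 243 UMIs in all, and the glial classes. Leaving out 1 P21 library ended calls for Mbd3 in excitatory neurons, Tet3 in inhibitory neurons, Tet1 in endothelial cells and Dnmt3a in mature oligodendrocytes. No paired analysis was possible because the replicate numbers of the P60 groups were given in accession order and mark no shared animal, day or batch.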
